A study of Mus musculus with 6 samples.

Results

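The transcriptome of visual cortex was compared between mice that carry a mutant Mmp9 allele and wild-type mice. In this dominant model every animal with at least 1 mutant allele counts as a carrier. The carriers were 2 heterozygotes (genotype UTRmut/WT, called het) and 2 homozygotes (UTRmut/UTRmut, called UTRmut), and the reference was 2 wild types (WT/WT, called WT), so the comparison used 4 against 2 and took in all 6 libraries of the study. All mice had the strain label B6.CBA/Tar, and cortex was dissected at postnatal day 28. Replicate 1 of each genotype was a female and replicate 2 a male, so the replicate number, which entered the model as a block, is also the sex. The mutation lies in an untranslated region of Mmp9. Which of the untranslated regions was altered, and how, is not given in the sources used here. The labels name no litters, preparation days or numbers of animals per library, so the p-values reflect only how these samples vary, technical variation included.

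Mmp9 encodes matrix metalloproteinase 9, a secreted protease that cleaves components of the extracellular matrix around synapses and is inhibited by the TIMP proteins. Its production and release follow neuronal activity, and the untranslated regions of an mRNA hold signals for its transport, stability and local translation. In visual cortex, sensory input drives a first wave of immediate-early genes such as Fos and Egr2, transcription factors that are induced within minutes, and a later wave of effectors such as Bdnf and Homer1 that act at synapses.

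Library totals ranged from 9500090 to 11966579 counts, with 23353 to 23845 genes detected in each. Markers of cortical excitatory neurons, interneurons, glia and vessels were present in every library, Slc17a7 at 875 to 1005 CPM (counts scaled to library size, here with trimmed mean of M-values factors, TMM). The liver genes Apoa2 and Serpina1a were at 0 throughout. Of the markers of other brain regions, thalamic Gbx2 was at 0 throughout, Slc17a6 at 30.5 to 36.5 CPM and Lef1 at 1.39 to 2.52 CPM. Striatal Drd1 was at 13.3 to 19.9 CPM, Drd2 at 0.0964 to 0.747 CPM and Adora2a at 0.747 to 0.95 CPM. Hippocampal Prox1 was at 11.3 to 16.0 CPM, C1ql2 at 2.15 to 7.51 CPM and Dsp at 0.087 to 0.777 CPM. The 2 WT libraries differed from each other. The WT female had the lowest value of the 6 libraries in 21.6% of tested genes and the highest in 23.1%, against 13.8% to 17.4% for each of the others. The WT male had 268 counts of Xist, the RNA that coats the inactive X chromosome of females, where the other males had 15 and 5 and the females 6164 to 7056. It also had 42.1 CPM of the choroid plexus gene Ttr, where the UTRmut male had 6.44 and the remaining libraries 0.193 to 0.729.

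Mmp9 itself was scarce. Its counts were 4 and 9 in the WT female and male, 9 and 9 in the het libraries and 8 and 16 in the UTRmut libraries. The groups overlapped, since the UTRmut female had fewer counts than the WT male. The log2 difference between carriers and WT was 0.74 (SE 0.49) and did not pass the test (edgeR quasi-likelihood F test, Benjamini-Hochberg adjusted p = 0.9999). Of its inhibitors, Timp2 had a carrier difference of -0.01 (SE 0.07), Timp3 of 0.12 (SE 0.16) and Timp4 of 0.08 (SE 0.13) on the log2 scale. Timp1 had 4 to 9 counts in every library and was below the filter on low counts. None of the inhibitors that were tested passed, and the sign of each depended on which library was left out. Gene counts cannot show the untranslated region itself, so they do not check the genotype labels.

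Among 16119 tested genes, 2 were higher in carriers at an adjusted p under 0.05, which is 0.0124% of the genes, and 0 were lower (edgeR, Benjamini-Hochberg). At an unadjusted p under 0.05 there were 247 higher (1.53%) and 310 lower (1.92%). The median difference over all tested genes was -0.00 on the log2 scale, and 49% of them had a positive sign. DESeq2 called 4 higher and 0 lower, with Fos and Egr2 added. A gene was described as alike in het and UTRmut where all 4 carriers lay on one side of both WT libraries, both genotypes differed from WT in the same direction, and the difference between UTRmut and het was under 0.5 of the carrier difference. All 4 carriers lay above both WT libraries in 812 genes (5.04%) and below both in 871 (5.4%). Of these, 549 genes (3.41% of those tested) were alike and higher and 564 (3.5%) alike and lower. In genes named as alike, the separation from WT and the small difference between UTRmut and het were set by this rule. Both genotypes were read against the same 2 WT libraries, so a WT library with an unusual value moves them together, and these counts carry no test. In bulk tissue, fewer cells of a type and less RNA per cell cannot be told apart.

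The genes that passed were Catspere1 and Catspere2, neighbours on chromosome 1. Catspere2 encodes an auxiliary subunit of CatSper, the calcium channel of the sperm tail, and Catspere1 is annotated as an unprocessed pseudogene of the same family. Catspere1 (ENSMUSG00000102483, GRCm38 chromosome 1, 177808550 to 177962233, plus strand) had 0 counts in both WT libraries. It had 41 counts in the het female, 85 in the het male, 52 in the UTRmut female and 74 in the UTRmut male. Every carrier thus had reads where neither WT library had any. Against a floor of 3 counts in each WT library it was at least 21.4-fold higher in carriers, at least 22.3-fold in het and at least 20.6-fold in UTRmut (edgeR, Benjamini-Hochberg adjusted p = 5.68e-05).

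Catspere2 (ENSMUSG00000091476, chromosome 1, 177983423 to 178172704, plus strand) was at 7.23 and 7.77 CPM in the WT female and male. The het female had 16.4 CPM, the het male 25.4, the UTRmut female 18.9 and the UTRmut male 23.1. All 4 carriers lay above both WT libraries, at 20.9 ± 4.04 CPM (SD, n = 4) against 7.50 ± 0.382 (SD, n = 2). The log2 difference was 1.47 (SE 0.15; edgeR, Benjamini-Hochberg adjusted p = 0.000383). It was 1.47 in het and 1.48 in UTRmut against the same WT libraries. UTRmut minus het was 0.01 for Catspere2 (95% interval -0.32 to 0.35) and -0.09 for Catspere1 (95% interval -0.67 to 0.50), and both intervals include 0. Both genes stayed past the threshold in each of the 15 alternatives tried. Among these, 2 left out a WT library, and their p-values hold no spread between WT libraries. The log2 difference of Catspere2 was 1.64 without the WT female and 1.30 without the WT male.

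The transcripts of these neighbours are similar, so reads can be hard to assign. Of the 50-base stretches of the Catspere1 transcript in the GENCODE annotation, 25.07% also occur in Catspere2, and of the 100-base stretches 11.51%. At 20 positions the transcripts differ by a single base inside an otherwise identical stretch of 29 bases. The following 3 pairs are shown as examples of such positions. Whether each Catspere1 stretch is absent from the rest of Catspere2 was not checked, so a read across it may not tell the genes apart. In the last pair the positions, 484 and 487, lie much closer together than in the others, so it may not join matching parts of the transcripts. The differing base is in capitals, and positions count from 1 at the 5′ end of the stretch, with the Catspere1 base first (A15G, C15A and T15A).
Catspere1 at transcript position 150: ggaaactcatttgtAtcatggaaaatacc
Catspere2 at transcript position 231: ggaaactcatttgtGtcatggaaaatacc
Catspere1 at transcript position 188: taaagttgaaaacaCtacatcacccaaga
Catspere2 at transcript position 269: taaagttgaaaacaAtacatcacccaaga
Catspere1 at transcript position 484: ctgaagagctgataTggaccgcaaagaaa
Catspere2 at transcript position 487: ctgaagagctgataAggaccgcaaagaaa
The deposited table holds counts per gene, so whether reads with the Catspere1 base were present was not tested. Another locus, the unprocessed pseudogene Gm8010 (chromosome 1, 178143301 to 178144272, plus strand), lies within the span of Catspere2 on the same strand and shares no 50-base stretch with either gene. WT libraries held 4 and 3 of its reads, het libraries 9 and 18 and UTRmut libraries 14 and 18, with every carrier above WT. The log2 difference of 2.07 (SE 0.53) did not pass, and reads from Gm8010 and unspliced Catspere2 RNA cannot be told apart in these counts.

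**Figure D1:**
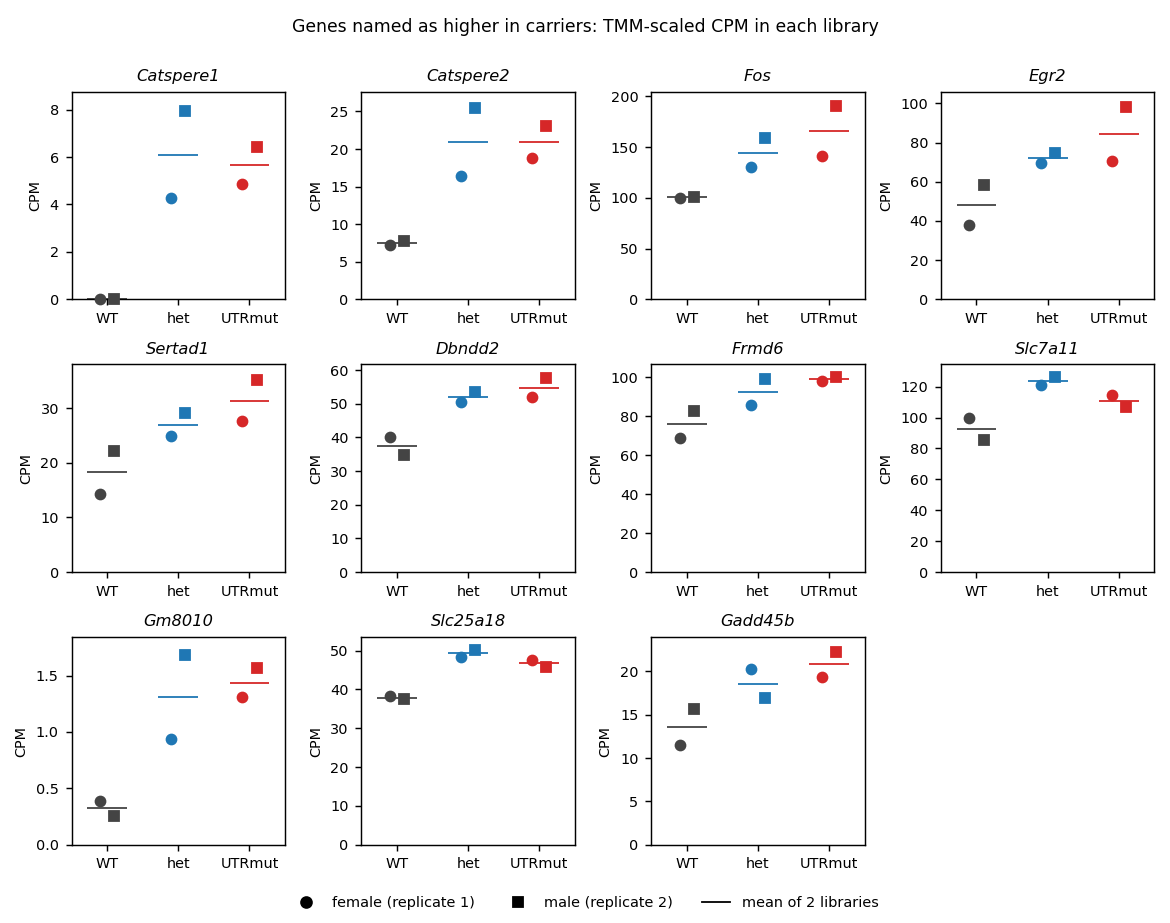
TMM-scaled CPM (vertical axis, from 0) of 11 genes named as higher in carriers, in each genotype (horizontal axis); circles are females, squares males, and lines the mean of 2 libraries. Catspere1 sits at 0 in both WT libraries. In every panel all 4 carriers lie above both WT libraries, which was a condition for the genes named as alike.

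After the Catspere genes, the smallest p-values among the genes alike and higher belonged to activity-induced transcription factors. Fos, a subunit of the AP-1 factor, was at 100.01 and 100.8 CPM in the WT female and male. It was at 130.2 and 159 CPM in het and at 141 and 190.4 CPM in UTRmut. The WT libraries lay close together and every carrier lay above them, with a log2 difference of 0.62 (SE 0.10) that did not pass with edgeR (Benjamini-Hochberg adjusted p = 0.119) but did with DESeq2 (Benjamini-Hochberg adjusted p = 0.0004907). Over the alternatives the adjusted p of Fos ranged from 1.962e-09 to 0.9998. UTRmut minus het was 0.19 (95% interval -0.04 to 0.42).

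Egr2, a zinc-finger factor of the same early wave, was at 37.9 and 58.6 CPM in WT, 69.4 and 74.9 in het, then 70.4 and 97.9 in UTRmut. The WT female was lowest and the UTRmut male highest. Its log2 difference was 0.71 (SE 0.12; edgeR, Benjamini-Hochberg adjusted p = 0.119), and DESeq2 called it at an adjusted p of 0.0004907 (range over the alternatives 3.965e-10 to 0.9998). UTRmut minus het was 0.20 (95% interval -0.06 to 0.47). Gadd45b, an activity-induced gene tied to DNA demethylation, was at 11.6 and 15.7 CPM in WT, 20.3 and 16.9 in het, beside 19.3 and 22.3 in UTRmut. Its log2 difference of 0.53 (SE 0.15) did not pass.

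Of the 27 immediate-early genes tested, 22 had a positive carrier difference and 6 were alike and higher, beside 3.41% of all genes, and 0 were alike and lower. None passed. The 6 were Fos, Egr2, Gadd45b, the nuclear receptor gene Nr4a3, the stress-induced gene Ier3 and the transcription factor gene Atf3, of which Atf3 had under 2 CPM in every library. The list was chosen with earlier results of these data known, so these counts beside all genes are a description only. Its median log2 difference was 0.33, beside -0.00 over all tested genes. It was 0.22 for het and 0.43 for UTRmut against the shared WT libraries. Relative to each gene's mean over the libraries, the median member stood at -0.43 in the WT female and 0.01 in the WT male. It stood at 0.02 and 0.04 in the het female and male and at 0.10 and 0.28 in the UTRmut female and male. The WT female was thus low, while the WT male lay close to both het libraries. In females the median difference was 0.48, and in males 0.15.

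The RefSeq promoter table (GRCm38.p6, 300 bases around each start) held 9 of the 12 genes named as higher, and 4 motifs were searched on both strands. The CRE half-site TGACG, which also lies within the full CRE TGACGTCA, occurred in Egr2 and Fos, and in 23.05% of all 27025 genes with a promoter. The full CRE occurred in none of the 9 and in 2.03% of all. The CArG box, bound by serum response factor, occurred in Egr2 (1.81% of all), and the EGR site GCGTGGGCG in Frmd6 (0.71% of all). These windows are shown, with the motif in capitals, because Egr2 belongs to the activity-induced wave and its family binds the EGR site. A match is a description of letters, and binding was not measured. Motifs outside the 300 bases were not searched, for Fos as for the other genes.
Egr2, first start, chr10:67537484-67537513, plus strand: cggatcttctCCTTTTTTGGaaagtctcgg
Egr2, second start, chr10:67537787-67537816, plus strand: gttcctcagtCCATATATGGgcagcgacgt
Frmd6, chr12:70825431-70825460, plus strand: ggagcggaagGCGTGGGCGgggggcggggc
Of the 12 genes named as lower, 5 had a promoter in the table, and none of the motifs was found in those windows.

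The other genes named as alike and higher were a transcriptional coregulator, a cytoskeletal adaptor and genes of glutamate handling, and none passed. Sertad1, a coregulator of E2F-dependent transcription, was at 14.4 and 22.2 CPM in WT, 24.9 and 29.1 in het, with 27.6 and 35.2 in UTRmut. Every carrier lay above both WT libraries, with a log2 difference of 0.69 (SE 0.12; edgeR, Benjamini-Hochberg adjusted p = 0.16, range over the alternatives 3.69e-05 to 0.9998) and a UTRmut minus het difference of 0.22 (95% interval -0.07 to 0.50). Dbndd2, a dysbindin-domain gene whose start lies 454.7 kb from that of Mmp9 on chromosome 2, was at 40.2 and 34.7 CPM in WT, 50.5 and 53.4 in het, then 52.0 and 57.6 in UTRmut. The groups did not overlap, as the rule for alike genes requires. The log2 difference was 0.51 (SE 0.10; edgeR, Benjamini-Hochberg adjusted p = 0.241), and UTRmut minus het was 0.08 (95% interval -0.17 to 0.32). Without the WT female the log2 difference of Dbndd2 was 0.68. With no filter on low counts Dbndd2 passed (edgeR, Benjamini-Hochberg adjusted p = 0.0008146, range over the alternatives 0.0008146 to 0.9443). Its log2 difference was 0.51 there too, so the pass came with the setting and not with a larger difference.

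Slc25a18, the mitochondrial glutamate carrier of astrocytes, was at 38.2 and 37.6 CPM in WT, 48.3 and 50.3 in het, beside 47.6 and 45.9 in UTRmut. Its WT libraries lay close together and below every carrier, and the log2 difference was 0.34 (SE 0.09). Slc7a11, the cystine and glutamate exchanger, had a log2 difference of 0.34 (SE 0.09), with 0.42 in het and 0.26 in UTRmut. Frmd6, a FERM-domain protein upstream of the Hippo pathway, had 0.34 (SE 0.08), with the het female nearest to WT at 85.7 CPM against 82.7 in the WT male.

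None of the 12 genes named as alike and lower passed (edgeR, Benjamini-Hochberg adjusted p = 0.9999 for each). Plin4, a coat protein of lipid droplets, was at 4.05 and 5.96 CPM in WT, 2.39 and 2.06 in het, then 2.80 and 1.48 in UTRmut. Each carrier was below both WT libraries, with a log2 difference of -1.21 (SE 0.29), or -1.75 without the WT female. With no filter on low counts Plin4 passed (edgeR, Benjamini-Hochberg adjusted p = 0.01406, range over the alternatives 0.01406 to 1). Pxdn, a peroxidase that cross-links collagen of the basement membrane, was at 43.1 and 56.1 CPM in WT, 39.2 and 35.8 in het, beside 35.7 and 32.9 in UTRmut. The WT male was well above the rest, and the log2 difference was -0.47 (SE 0.11), or -0.71 without the WT female. With no filter on low counts Pxdn passed (edgeR, Benjamini-Hochberg adjusted p = 0.00561, highest over the alternatives 1).

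Acvr2b, a receptor for activins, was at 12.3 and 10.5 CPM in WT, 8.43 and 6.63 in het, with 7.75 and 7.48 in UTRmut, a log2 difference of -0.59 (SE 0.16). Pcdhgb6, a gamma-protocadherin, was at 10.5 and 7.86 CPM in WT, 6.77 and 4.30 in het, then 6.07 and 5.57 in UTRmut, a log2 difference of -0.69 (SE 0.18). Celsr2, a cadherin of planar cell polarity, was at 334 and 355 CPM in WT, 311 and 262 in het, beside 312 and 254 in UTRmut, a log2 difference of -0.28 (SE 0.08). In Celsr2 the carriers divided by sex, with both males below both females, and the log2 difference was -0.46 without the WT female.

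The glycosyltransferase gene Mgat4b had -0.40 (SE 0.11), the ubiquitin ligase gene Trim11 -0.48 (SE 0.13) and the membrane protein gene Tmem245 -0.27 (SE 0.07). The noncoding genes Gm45293, Cep112it and Gm10530 had -1.48 (SE 0.39), -1.58 (SE 0.42) and -0.98 (SE 0.27), all with under 5 CPM in every library. By the rule for alike genes, UTRmut minus het was small beside the carrier difference. In all the lower genes described here its 95% interval spanned 0 throughout. It was narrowest in Tmem245, from -0.13 to 0.25, and widest in Cep112it, from -2.10 to 0.53, so that a sizeable difference between the carriers could not be seen in the scarce genes.

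**Figure D2:**
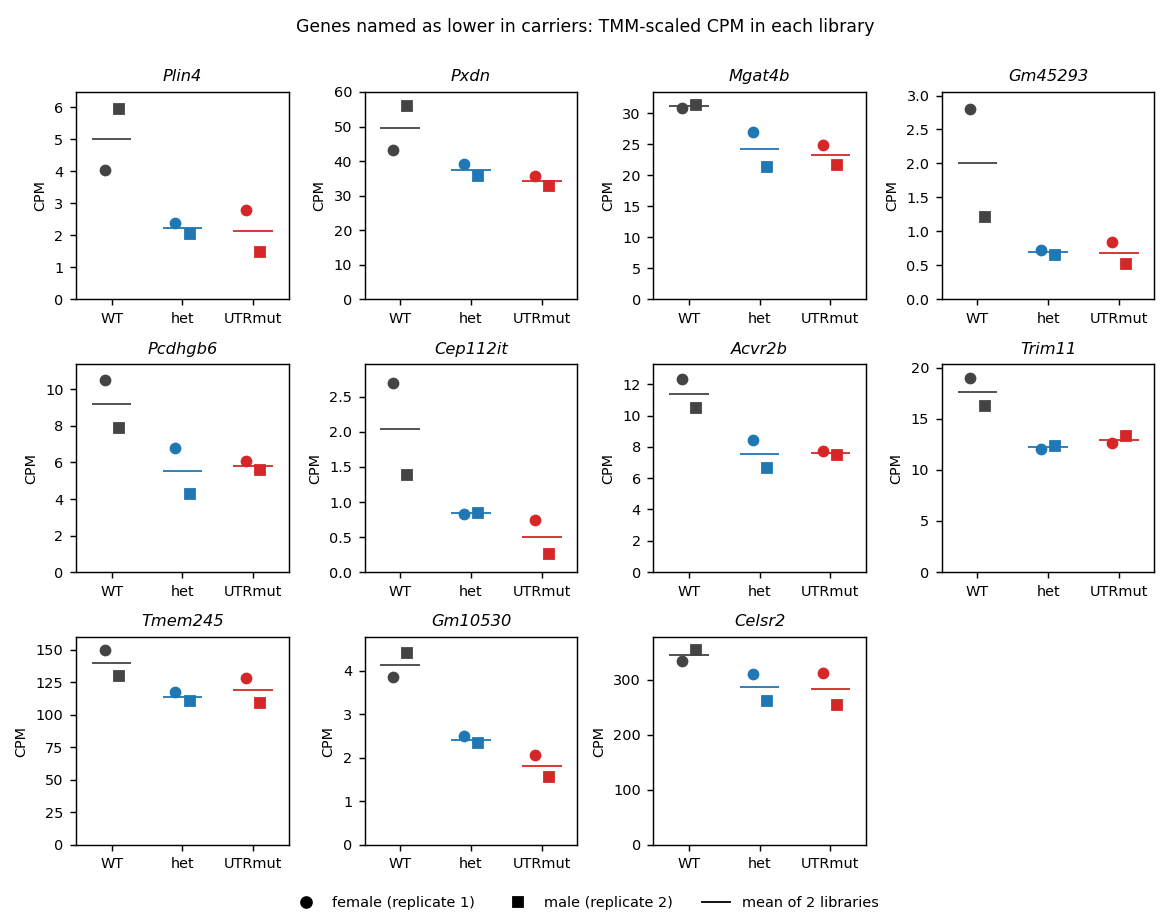
TMM-scaled CPM (vertical axis, from 0) of 11 genes named as lower in carriers, by genotype (horizontal axis); circles are females, squares males, and lines the mean of 2 libraries. All 4 carriers lie below both WT libraries in every panel, which was a condition for naming these genes, and none of them passed the test.

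**Figure D3:**
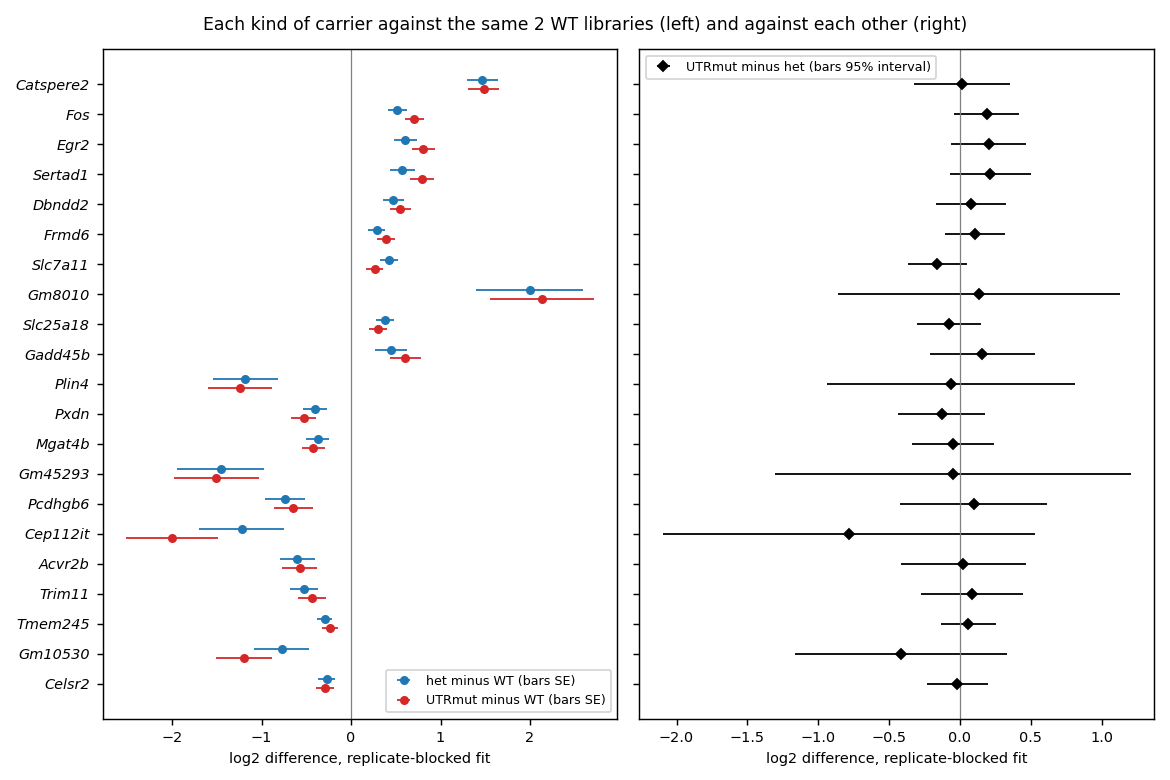
Log2 differences (horizontal axes) of the genes in the plots of higher and lower genes, except Catspere1: on the left het minus WT and UTRmut minus WT with SE, both against the same 2 WT libraries, on the right UTRmut minus het with its 95% interval. Catspere2 stands at 1.47 and 1.48. Every interval on the right includes 0, and the rule for alike genes favours this, since it keeps the difference between UTRmut and het small.

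The direct comparison of UTRmut with het asks where the carriers differ, and does not use WT as the reference. It called 2 genes higher in UTRmut (0.0124%) and 3 lower (0.0186%), and without the replicate block 0 higher and 2 lower (edgeR, Benjamini-Hochberg). The higher genes were ribosomal RNAs. The mitochondrial mt-Rnr1 was at 6532 and 8547 CPM in UTRmut against 4456 and 4300.0 in het and 3819 and 4383 in WT. It rose by 0.77 on the log2 scale (95% interval 0.56 to 0.98; adjusted p = 0.0499). CT010467.1, annotated as a ribosomal RNA on chromosome 17, was at 2649 and 1980.5 CPM in UTRmut, 1528 and 1207 in het and 1469 and 1327 in WT, a log2 difference of 0.76 (95% interval 0.59 to 0.92; adjusted p = 0.00441). In both genes het lay close to WT and UTRmut above. Ribosomal RNA is removed before sequencing in such libraries, and the part of that step was not tested.

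All 3 lower genes were highest in het. Rn7s1, a copy of the RNA of the signal recognition particle on chromosome 12, was at 5.497 and 4.84 CPM in WT, 91.6 and 153 in het, then 5.98 and 6.27 in UTRmut. It stood apart in both het libraries, with UTRmut minus het at -4.29 (95% interval -4.75 to -3.84; edgeR, Benjamini-Hochberg adjusted p = 0.0001). All 50-base stretches of Rn7s1 also occur in Rn7s2, which was at 33.8 and 36.8 CPM in het, so the assignment of reads between these copies is uncertain. The unnamed model Gm37176 was at 3.76 and 2.25 CPM in WT, 8.74 and 8.31 in het, beside 1.59 and 1.65 in UTRmut, a log2 difference of -2.39 (95% interval -3.04 to -1.73; edgeR, Benjamini-Hochberg adjusted p = 0.0248). The protein-coding gene 4833420G17Rik was at 18.6 and 25.6 CPM in WT, 29.0 and 30.3 in het, with 11.9 and 16.3 in UTRmut, a log2 difference of -1.09 (95% interval -1.41 to -0.77; edgeR, Benjamini-Hochberg adjusted p = 0.0376). In none of these 3 genes did the group means order with the number of mutant alleles, and in Rn7s1 and Gm37176 het alone stood high. Rn7s1 was called in each of the 10 alternatives run for this comparison, and CT010467.1 in 7, mt-Rnr1 and Gm37176 in 6 each and 4833420G17Rik in 5. All but Rn7s1 were lost without the het female and, again, without the het male (edgeR, Benjamini-Hochberg adjusted p = 0.3093 and 1 for mt-Rnr1, 0.8507 and 1 for Gm37176, 1 and 1 for CT010467.1, and 1 and 0.5985 for 4833420G17Rik). Without the UTRmut female Gm37176 (0.1359) and 4833420G17Rik (0.1943) were lost, and without the UTRmut male mt-Rnr1 and Gm37176 (0.08157 each) and 4833420G17Rik (0.1237; edgeR, Benjamini-Hochberg adjusted p).

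The carrier difference depended on the sex for 152 genes (0.943%; edgeR interaction test, Benjamini-Hochberg). It was lower in males than in females for 124 (0.769%) and higher for 28 (0.174%). Each sex held 1 WT library, so a difference between the sexes and a peculiarity of a WT library cannot be told apart. The p-values of this test rest on the spread between the carriers within a sex and hold no spread between WT libraries. The 5 genes with the smallest p on the lower side were Tet3, which oxidises methylcytosine, the insulin receptor substrate Irs2, the AP-1 subunit Fosl2, the cell cycle inhibitor Cdkn1a and the prohormone convertase Pcsk1. Cdkn1a was at 13.4 CPM in the WT female and 38.0 in the WT male, and at 38.0, 30.3, 38.0 and 37.7 in the het female, het male, UTRmut female and UTRmut male. The WT female alone stood low, and the carrier difference was 1.49 in females and -0.17 in males. Pcsk1 showed the same layout, at 93.1 CPM in the WT female, 179 in the WT male and 165 to 183 in the carriers. In Tet3 the WT female was lowest at 138 CPM and the WT male highest at 241, with the carriers from 177 to 234.

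Activity-regulated effectors of the later wave were among these genes. Of 24 tested, 8 were lower in males than in females by this test, beside 0.769% of all genes. They were Homer1, Baz1a, Nptx2, Pcsk1, Bdnf, Inhba, Vgf and Cbln4. Of the 27 immediate-early genes 5 were, namely Fosb, Egr3, Ier5, Arc and Fosl2. Both lists were chosen with earlier results of these data known. Bdnf, a neurotrophin, was at 39.6 CPM in the WT female, 77.9 in the WT male, 74.5 and 68.8 in the het female and male and 81.8 and 75.0 in the UTRmut female and male. The carriers thus lay near the WT male, and the carrier difference was 0.97 in females and -0.12 in males. Arc, which acts in receptor endocytosis at synapses, was at 478 and 981 CPM in WT, 863 and 874 in het, then 1105 and 976 in UTRmut. Inhba, a subunit of activin, was at 10.3 and 38.4 CPM in WT, 32.3 and 25.4 in het, beside 43.0 and 32.5 in UTRmut. Bdnf, Arc and Inhba were chosen after their values were seen.

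For the later wave as a whole, 20 of 24 genes had a positive carrier difference, with a median of 0.18 in the blocked model, 0.45 in females and -0.09 in males. Rgs2, a brake on G-protein signalling, and the synaptic scaffold gene Homer1 were alike and higher. Rgs2 was at 47.5 and 60.7 CPM in WT, 63.0 and 70.1 in het, with 69.5 and 66.2 in UTRmut (log2 difference 0.32, SE 0.09). Homer1 was at 599.8 and 986 CPM in WT, 1036 and 1091 in het, then 1195 and 1021 in UTRmut. In both genes the WT male lay just under the lowest carrier and the WT female far under it. The kinase gene Plk2 had a log2 difference of 0.18 (SE 0.07) and the granin gene Scg2 0.20 (SE 0.09). Scg2 had -0.01 without the WT female and 0.42 without the WT male, each time against the other WT library alone. The WT female also held the highest share of counts in unverified gene models (TEC), 0.751% against 0.452% to 0.680% elsewhere, and the part of this in the activity genes was not tested.

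**Figure D4:**
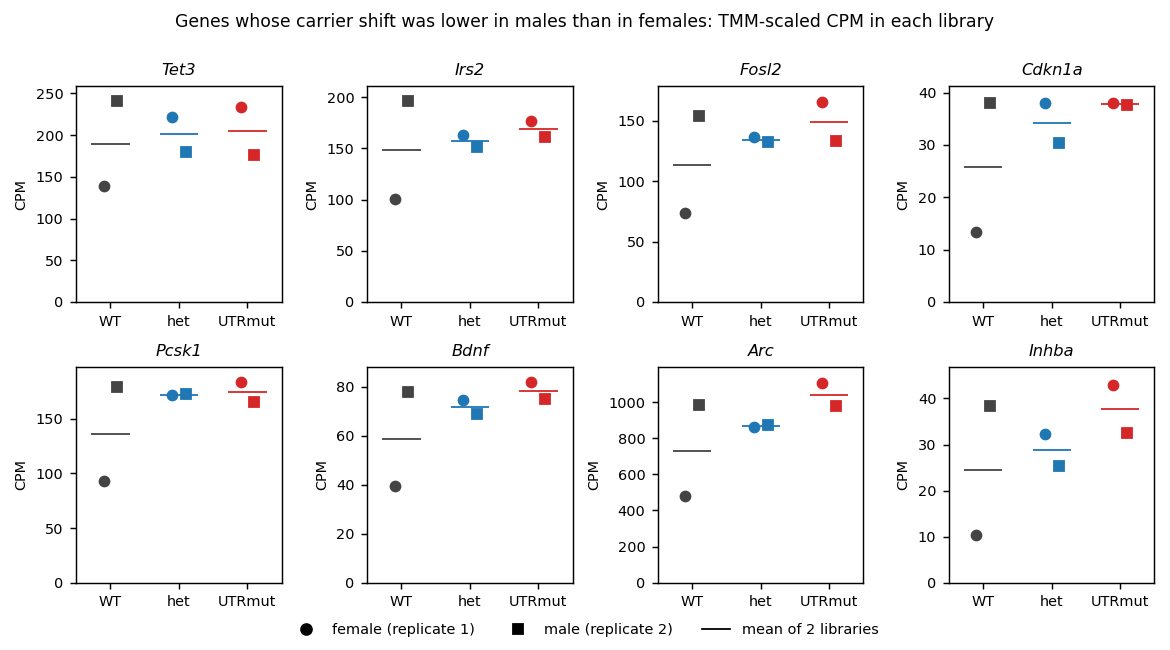
TMM-scaled CPM (vertical axis, from 0) by genotype (horizontal axis) of 8 genes whose carrier difference was lower in males than in females; circles are females, squares males, and lines the mean of 2 libraries. The WT female is the lowest library in each panel, and the WT male lies near or above the carriers.

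On the higher side of the sex comparison the 5 genes with the smallest p were 3 noncoding and 2 coding. Rn7s2 was at 53.4 CPM in the WT female and 25.6 in the WT male, and at 30.3 to 36.8 in the carriers. Gm24447, annotated as a miscellaneous RNA, was at 78.2 and 48.6 CPM in WT and 46.6 to 55.9 in the carriers. With DESeq2 neither passed the interaction test (Benjamini-Hochberg adjusted p = 0.07189 for Rn7s2 and 0.07068 for Gm24447). The microtubule-binding gene Eml2 was at 160.3 and 112 CPM in WT, 133 and 142 in het, beside 115 and 154 in UTRmut. Atp11b, a lipid flippase gene, was at 183 and 107 CPM in WT and 133 to 148 in the carriers. The WT female was highest in each of these 4, and the WT male was lowest in all but Gm24447. AC166110.4, a lincRNA, was at 3.47 CPM in the WT female and 2.60 to 5.04 in the carriers, and the WT male alone stood low at 0.173. Dropping 1 WT library leaves the carrier comparison resting on the other WT library alone. Its p-values then hold no spread between WT libraries, so genes called only in those runs are not named as passing here.

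Of 20 metalloprotease and inhibitor genes tested, 10 had a positive difference, with a median of 0.03. The membrane protease gene Mmp14 was at 5.88 and 5.27 CPM in WT, 9.68 and 10.4 in het, with 5.98 and 7.31 in UTRmut, so that het stood above the others (log2 difference 0.58, SE 0.23). The plasminogen activator gene Plat had 0.21 (SE 0.09). Of 20 genes for reported MMP-9 substrates, 8 were positive, with a median of -0.02. Among them the syndecan gene Sdc3 had -0.19 (SE 0.08) and the vitronectin gene Vtn 0.48 (SE 0.18). Of 16 perineuronal net genes, 8 were positive, 11 in females (median 0.11) and 4 in males (median -0.14). Of 15 basement membrane genes, 5 were positive, 12 in females (median 0.20) and 4 in males (median -0.17). The proteoglycan gene Acan was at 3.95 CPM in the WT female and 7.69 in the WT male, beside 7.29 to 8.41 in the carriers, and the guidance gene Sema3a at 52.5 and 77.04 in WT beside 69.4 to 78.5. In both, the WT female alone stood low. None of these genes passed with the filter on low counts and all 6 libraries. The log2 difference of Sema3a was 0.49 without the WT male and -0.003 without the WT female. Vtn passed with no filter on low counts (edgeR, Benjamini-Hochberg adjusted p = 0.0116, highest over the alternatives 1).

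Nuclear genes of translation and respiration had small positive differences in most members, and mitochondrially encoded mRNAs did not. These lists, too, were chosen with earlier results of these data known. Of 45 cytosolic ribosomal protein genes tested, 44 were positive and 35 were positive in both sexes, beside 21.3% of all genes that were positive in both, and the median was 0.11 on the log2 scale. Relative to each gene's mean, the median member stood at -0.15 and 0.01 in the WT female and male, -0.09 and 0.08 in het, then 0.04 and 0.11 in UTRmut. Males were above females within each genotype, and groups overlapped. Rps15 was at 139 and 162 CPM in WT and 161 to 185 in the carriers (log2 difference 0.19, SE 0.07), Rplp0 had 0.19 (SE 0.08), and Rps19 was alike and higher at 0.16 (SE 0.07). Of 33 nuclear genes of the respiratory chain, 31 were positive, with a median of 0.07. Ndufa4 was at 134 and 149 CPM in WT, 152 and 167 in het, beside 154 and 173 in UTRmut (log2 difference 0.19, SE 0.07). The ATP synthase gene Atp5j had 0.18 (SE 0.09). Of 10 mitochondrially encoded mRNAs, 3 were positive, with a median of -0.07, and 7 were positive in females and 1 in males. None of these genes passed. The share of counts in mitochondrial ribosomal RNA moved with them in part, from 4.95% in the WT female to 8.69% in the UTRmut male, and its part was not tested.

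Cell type markers gave small differences. Of 15 astrocyte genes, 13 were positive with a median of 0.08, and the glutamate transporter gene Slc1a3, at 543 and 579.8 CPM in WT, 601 and 648 in het, with 608 and 661 in UTRmut, was alike and higher (log2 difference 0.17, SE 0.06). Glul, which makes glutamine, had 0.13 (SE 0.07). The astrocyte median was 0.18 in females and -0.09 in males. Of 15 oligodendrocyte genes, 4 were positive, with a median of -0.08. Of 15 deep-layer genes, 6 were positive (median -0.08), of 15 upper-layer genes 7 (median -0.01) and of 19 interneuron genes 14 (median 0.06). The deep-layer gene Etv1 was at 109.6 and 119 CPM in WT, 100.1 and 97.8 in het, beside 96.3 and 94.5 in UTRmut (log2 difference -0.23, SE 0.07). Etv1 was alike and lower. The deep-layer gene Ccn2 had 0.42 (SE 0.12), the input-layer gene Scnn1a -0.71 (SE 0.29), the potassium channel gene of fast-spiking interneurons Kcnc1 -0.26 (SE 0.09) and the GABA-synthesising gene Gad1 0.16 (SE 0.07). None passed.

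Among the remaining lists, clock genes divided: the repressor gene Nfil3 was at 14.1 and 20.4 CPM in WT and 22.0 to 25.0 in the carriers (log2 difference 0.43, SE 0.14), and Hlf at 169 and 176 in WT and 122 to 159 in the carriers (-0.27, SE 0.09). Both kept the carriers on one side of WT, and Nr1d1 had -0.28 (SE 0.10). The serotonin receptor gene Htr2c was at 17.5 and 19.3 CPM in WT, 15.2 and 9.53 in het, with 7.004 and 8.88 in UTRmut. The carriers lay below WT and did not lie alike, with a log2 difference of -0.59 in het and -1.21 in UTRmut and of -0.62 between them (95% interval -1.16 to -0.09, adjusted p = 0.9995 with edgeR and Benjamini-Hochberg). Of 13 replication-dependent histone genes, 11 were positive, among them Hist1h4d with 0.27 (SE 0.10). Red blood cell genes had a positive sign in 1 of 7, with a median of -0.47, Alas2 at -0.70 (SE 0.25) and a summed level of 399 and 489.9 CPM in WT, 397 and 416 in het, then 386 and 336 in UTRmut. Of 13 genes of meninges and fibroblasts, 9 were positive, and their median was 0.53 in females and -0.27 in males. None of these genes passed between carriers and WT, and no gene of any list did, with edgeR, the filter on low counts and all 6 libraries. Htr2c passed with no filter on low counts (edgeR, Benjamini-Hochberg adjusted p = 1.607e-05) and without the het female (0.0483). For Htr2c the highest adjusted p over the alternatives was 1. Against 1 WT library alone, the log2 difference was 0.75 for Nfil3 without the WT male and 0.49 for Hist1h4d without the WT female.

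**Figure D5:**
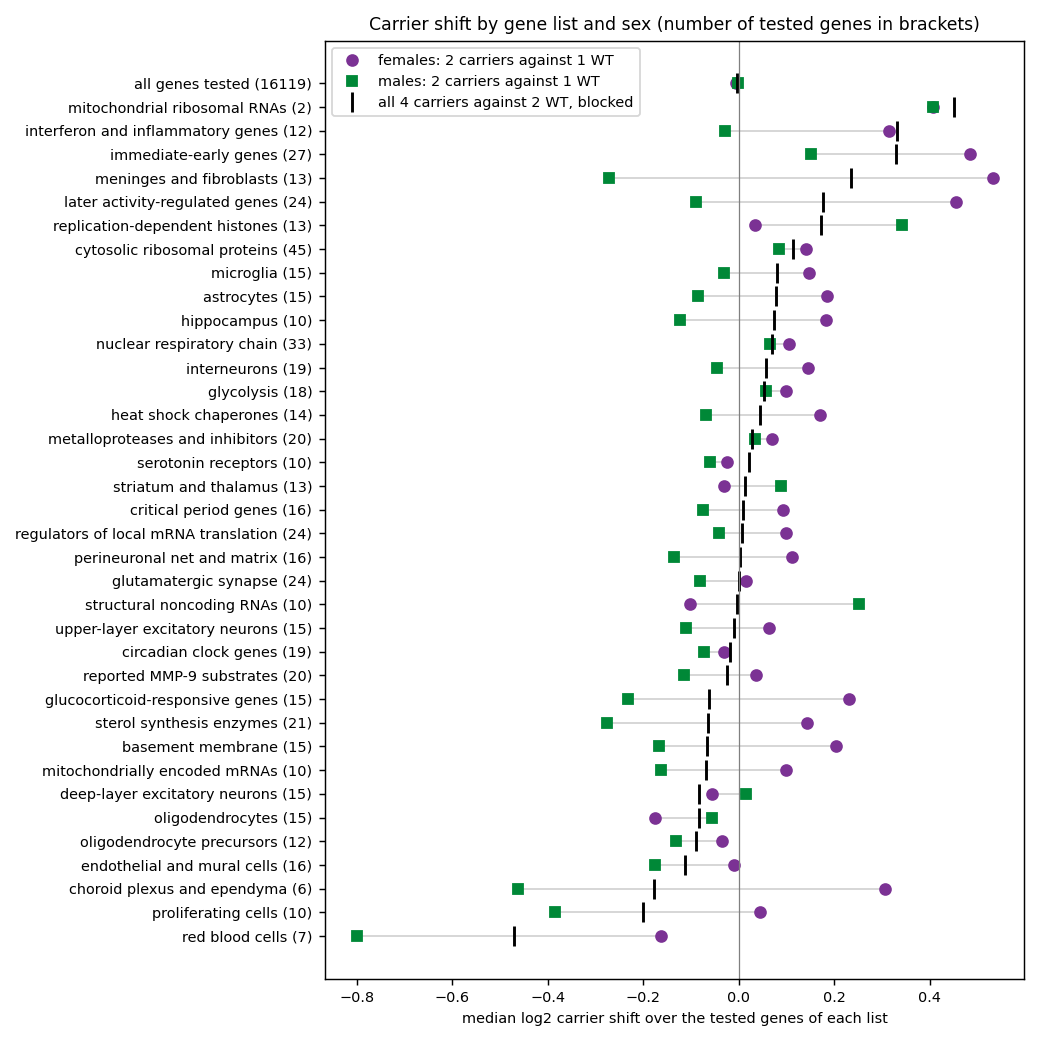
Median log2 carrier difference (horizontal axis) over the tested genes of each list (vertical axis, number of genes in brackets), in females (circles), in males (squares) and in the blocked model of all 6 libraries (bars). Immediate-early genes stand at 0.48, 0.15 and 0.33, later activity-regulated genes at 0.45, -0.09 and 0.18, and all tested genes near 0.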

How the data were processed

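Total RNA from visual cortex was sequenced in 6 libraries after preparation with a TruSeq stranded total RNA kit, per the labels. The values the authors deposited are raw counts of reads for each Ensembl gene in each library. Per the submitters' processing notes, the authors used HTSeq 0.6.0, HISAT2, Trimmomatic 0.39 and GATK 4.2.3.0 with GRCm38, in roles not given. The strand setting of the counting is not given in the sources used here. The table had 55487 genes, 26168 of them at 0 in every library. GENCODE (GRCm38) gave symbols for 55227 identifiers, and the other 260 held 0.01618% of counts.

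Genes were kept with filterByExpr by carrier status (minimum count 10, minimum total 15), which left 16119. They were scaled with TMM and tested with edgeR 4.0.16 (R 4.3.3) by its robust quasi-likelihood F test. Benjamini-Hochberg adjustment ran over all tested genes, with a threshold of 0.05. Carriers were compared with WT with the replicate number as a block (3 residual degrees of freedom). UTRmut against het and the sex interaction each had 2. The SE is the absolute log2 difference divided by the square root of F, and 95% intervals use the t distribution with moderated degrees of freedom. Differences within a sex and relative levels are in log2 CPM (prior count 2). A count of 0 allows up to 3 counts, 0.251 to 0.316 CPM in a library, and floors cover counting error only. Reads carry no molecular identifiers. Scripts were tested on simulated data.

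The members and gene lists were chosen with earlier results of these data known. Text genes were Mmp9 and Timp1 to Timp4; up to 15 passing genes a direction, filled to 12 with alike genes of smallest p; up to 3 genes of smallest p a list; and up to 5 passing genes a direction in the other comparisons (3 of smallest p where fewer than 3 passed). Genes named otherwise were chosen after their values were seen: Nr4a3, Ier3, Atf3, Homer1, Bdnf, Nptx2, Arc, Inhba, Egr3, Fosb, Ier5, Baz1a, Vgf, Cbln4, Pttg1, Ttr and the neighbours of Mmp9 and Catspere2. Some genes that the rule gave are not reported here. Alternatives were other scalings, filters and tests (DESeq2 1.42.0, limma 3.58.1), no block, and each library left out.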

Additional observations from a re-analysis of the deposited data

Results flagged for a closer look

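In 3 of 59 named genes, 1 of the 4 carriers stood apart from the other carriers in log2 CPM, where chance alone flags about 1 in 20 groups. For Frmd6 the het female was low, at 85.7 CPM against 98.3 to 100.1 in the other carriers, a gap of 0.887 of the range. For the clock gene Nr1d1 the het female was high, at 36.6 CPM against 30.3 to 30.9, a gap of 0.887 of the range. For Cep112it the UTRmut male was low, at 0.261 CPM against 0.747 to 0.841, a gap of 0.885 of the range at under 1 CPM.

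The 10 genes listed next were named because their carrier difference differed between the sexes in the interaction test. Homer1, Bdnf and other activity-regulated genes described earlier differed in that test too. The male minus female values on the log2 scale were -1.15 for Tet3, -1.08 for Irs2, -1.25 for Fosl2, -1.66 for Cdkn1a and -1.02 for Pcsk1. They were 1.08 for Rn7s2, 0.87 for Gm24447, 0.77 for Eml2, 0.73 for Atp11b and 4.80 for AC166110.4, whose WT male value rests on 2 counts. Rn7s2 (adjusted p = 0.07189) and Gm24447 (adjusted p = 0.07068) did not pass with DESeq2 and Benjamini-Hochberg adjustment. Tet3 had 0.72 in females and -0.44 in males, and Irs2 0.75 and -0.33. With 1 WT library a sex, the sexes and the WT libraries cannot be told apart.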

How the results depend on the processing

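Against 2 genes higher and 0 lower in carriers, a model with no replicate block gave 2 and 0, carriers fitted as 2 genotypes 3 and 0, DESeq2 4 and 0, and no filter on low counts 16 and 7. The gene added with carriers fitted as 2 genotypes was Rn7s1, which was high in het only. With no filter, adjusted p could fall steeply at a nearly unchanged log2 difference. For Fos it went from 0.119 to 1.962e-09 (edgeR, Benjamini-Hochberg) with 0.62 in both fits, and the cause was not tested. Leaving out single libraries gave 2 to 72 higher and 0 to 41 lower. Both upper ends came from runs without a WT library, which rest on the other WT library alone. The p-values of those runs hold no spread between WT libraries, so nothing is concluded from these upper ends. UTRmut against het (2 higher, 3 lower) gave 0 and 2 with no replicate block and 11 and 16 with no filter; leaving out libraries gave 0 to 45 and 2 to 61. The sex interaction (28 higher, 124 lower) gave 89 and 239 with no filter and 3 and 58 with DESeq2; leaving out carriers gave 26 to 80 and 106 to 241, and no value could be had without a WT library. Genes alike numbered 311 higher and 317 lower when a smaller share of the carrier difference was allowed between genotypes, and all of these were among the 549 and 564; leaving out libraries gave 619 to 2429 and 596 to 2332, with the WT libraries giving the largest counts, since fewer libraries then set the bounds. The runs that leave out carriers in the interaction, or any library in the count of alike genes, were chosen after seeing the data. Of 1005 gene values over 75 genes and alternatives, 952 kept direction and side of the threshold, 28 newly passed, 18 no longer passed and 7 changed sign. The sign changes came from leaving out a library: ranges were -0.0338 to 0.0186 for Timp2, -0.0604 to 0.327 for Timp3, -0.0918 to 0.260 for Timp4, -0.00646 to 0.424 for Scg2 and -0.00306 to 0.495 for Sema3a. The cause of the other changes was not tested. Deviations of same-numbered libraries correlated at 0.215 (WT and het), -0.0322 (WT and UTRmut) and 0.0643 (het and UTRmut) over 15567 autosomal genes. Sex and any other link between same-numbered libraries cannot be told apart in these values. Depth limits what can be seen of scarce genes such as Mmp9.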

Other observations

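Pttg1, which encodes securin, an inhibitor of chromosome separation, was at 4.11 CPM in the het male and 4.53 in the UTRmut male and at 0.0934 to 0.208 CPM in the other libraries. Both carrier males thus stood far above the WT male, while the carrier females lay at the level of the WT female. Between carriers and WT, Pttg1 passed with no filter on low counts (edgeR, Benjamini-Hochberg adjusted p = 1.079e-05) but not with the filter. The carrier difference was 3.92 on the log2 scale (SE 0.67; edgeR, Benjamini-Hochberg adjusted p = 0.119), and the difference between the sexes had an adjusted p of 0.541 (edgeR, Benjamini-Hochberg).

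Genes near Mmp9 and near Catspere2 were counted in windows chosen after seeing the data. Within 5 Mb of the start of Catspere2, 15 of 77 tested genes were alike (5 higher, 10 lower), or 19.5% beside 6.9% of all tested genes. Catspere1 was the single one of them that passed. Within 5 Mb of Mmp9, 7 of 85 were alike, or 8.24%, and within 1 Mb 4 of 31, or 12.9%. None of those near Mmp9 passed. They were Dbndd2, Ncoa5 and Zmynd8 (higher, with log2 differences of 0.51, 0.22 and 0.17) and Zfp335os (lower). Neighbouring genes share position and were not treated as independent.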
